A study of Mus musculus with 12 samples.

Results

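In gastrocnemius muscle of 12 mice, 10 genes of the adult fast-fiber sarcomere were followed: the myosin heavy chain genes Myh4, Myh1 and Myh2, the myosin light chain genes Myl1 and Mylpf, the myosin-binding protein gene Mybpc2, the troponin genes Tnnt3, Tnni2 and Tnnc2, and the skeletal actin gene Acta1. They were chosen by name from the 37748 genes of the deposited count table. Each of the 10 had 1 row there, and all 10 were among the 16679 genes that passed the filter on low counts. There were 3 mice in each of 4 groups, with 1 RNA-seq library per mouse. Controls were ACTA1-MCM/+ mice, which carry MerCreMer, a tamoxifen-dependent Cre recombinase made from the skeletal actin promoter. FLExD/+ mice (strain FLExDUX4/+) carried the conditional transgene for DUX4-fl, the full-length form of the transcription factor misexpressed in facioscapulohumeral muscular dystrophy (FSHD), which needs Cre to be switched on. The labels give the treatment of both groups as no tamoxifen (TMX), while the study describes TMX-injected ACTA1-MCM/+ controls for other assays. Moderate and severe model mice carried both transgenes (FLExDUX4/+;MCM/+) and received intraperitoneal TMX, as 1 injection of 5 mg/kg in the moderate model and as 2 injections of 10 mg/kg on consecutive days in the severe model. All mice were 13 weeks old, and the models were sampled on day 9. The study describes recombination in this system as mosaic, with the transgene recombined in only some muscle nuclei. By the labels no control mouse received TMX, and if so, effects of TMX and of DUX4-fl cannot be told apart in these libraries. One label describes the FLExD/+ group by a mild pathology although its strain lists no MCM transgene.

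A skeletal muscle fiber contracts when heads of myosin heavy chain in the thick filament pull on actin in the thin filament. Calcium binding to troponin C moves troponin I and troponin T, which lets myosin reach actin. Fast and slow fibers build this machine from different genes, and mouse gastrocnemius is mostly fast. Among fast fibers, type IIb fibers use Myh4, type IIx fibers use Myh1 and type IIa fibers use Myh2.

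The heavy chain genes lie side by side on chromosome 11 (GRCm38, plus strand) in the order Myh2 (67171027 to 67197517), Myh1 (67200052 to 67224575) and Myh4 (67238029 to 67260446), with 2534 bases between Myh2 and Myh1 and 13453 bases between Myh1 and Myh4. Acta1 is on chromosome 8 (123891769 to 123894751, minus strand), Myl1 on chromosome 1 (66924295 to 66945404, minus strand), Tnnc2 on chromosome 2 (164777161 to 164779967, minus strand), and Mybpc2 (44501699 to 44524656, minus strand) and Mylpf (127208890 to 127214298, plus strand) on chromosome 7. RefSeq places the start of Myh4 upstream of the GENCODE gene used for these positions. The windows around the RefSeq start sites of these 4 genes (GRCm38.p6, 250 bases before and 50 after, 5′ to 3′ on the gene's strand) are shown because these genes changed by different amounts, and because ACTA1 regulatory sequence drives the MerCreMer transgene. The Acta1 window is that of the mouse gene, and the sequence of the transgene's promoter was not examined. Capitals mark CArG boxes (the site of serum response factor), MEF2 sites and E-boxes (CANNTG, the site of myogenic bHLH factors), each searched on both strands.
Myh4, chr11:67237562-67237861: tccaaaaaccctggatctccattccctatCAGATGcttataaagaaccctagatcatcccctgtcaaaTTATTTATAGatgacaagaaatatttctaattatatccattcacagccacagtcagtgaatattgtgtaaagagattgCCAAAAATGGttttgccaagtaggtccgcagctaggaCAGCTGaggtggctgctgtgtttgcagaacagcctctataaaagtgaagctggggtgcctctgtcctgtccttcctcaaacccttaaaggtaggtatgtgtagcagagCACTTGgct
Myh1, chr11:67199852-67200151: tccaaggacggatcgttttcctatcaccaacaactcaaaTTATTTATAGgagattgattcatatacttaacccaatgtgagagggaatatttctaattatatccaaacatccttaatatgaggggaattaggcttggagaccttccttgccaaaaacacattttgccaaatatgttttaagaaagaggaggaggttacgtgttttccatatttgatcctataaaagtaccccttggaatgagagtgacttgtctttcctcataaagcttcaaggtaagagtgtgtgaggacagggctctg
Myh2, chr11:67170777-67171076: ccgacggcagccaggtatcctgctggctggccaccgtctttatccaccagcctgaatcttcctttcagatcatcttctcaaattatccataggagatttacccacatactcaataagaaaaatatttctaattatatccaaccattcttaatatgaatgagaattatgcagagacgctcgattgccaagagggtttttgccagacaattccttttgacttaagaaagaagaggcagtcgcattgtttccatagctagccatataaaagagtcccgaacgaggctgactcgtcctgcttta
Acta1, chr8:123894726-123895025: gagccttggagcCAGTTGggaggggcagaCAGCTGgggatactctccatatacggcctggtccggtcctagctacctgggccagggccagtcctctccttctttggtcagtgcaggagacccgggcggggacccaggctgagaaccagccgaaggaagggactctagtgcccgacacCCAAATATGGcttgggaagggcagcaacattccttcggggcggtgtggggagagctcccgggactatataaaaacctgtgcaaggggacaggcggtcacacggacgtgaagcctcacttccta
Windows were available for 8 of the 10 genes, not for Tnnt3 and Tnni2. A CArG box was in 2 of the 8 (Acta1 and Myh4) against 1.63% of 32851 RefSeq windows of this length, a MEF2 site in 2 (Myh1 and Myh4) against 3.19%, an E-box in 6 against 72.3% and TATAAA in 5 against 13.6%. The MEF2 sites of Myh1 and Myh4 overlap a TATAAA match. The 3 heavy chain windows share the 20-base run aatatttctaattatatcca, which begins 163 bases upstream of the start site at Myh4, 165 at Myh1 and 130 at Myh2, and which was in 3 of the 32851 windows, those of these genes. These matches describe letters in the windows and say nothing of factor binding in these mice.

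The heavy chains also share coding sequence, which bears on how their reads were counted. Of the 50-base words in the annotated transcripts of each gene, 18.9% for Myh4, 25.4% for Myh1 and 26.9% for Myh2 also occur in another gene, and such reads are divided by RSEM's estimate. Only exact matches among GENCODE M21 transcripts were counted, here and below. The study's mapping allowed mismatches and used a merged annotation, so these shares may understate how many reads were divided. One run present in a coding exon of all 3 genes, at chr11:67241010-67241059 in Myh4, chr11:67202264-67202313 in Myh1 and chr11:67173515-67173564 in Myh2, is printed as an example.
Shared run: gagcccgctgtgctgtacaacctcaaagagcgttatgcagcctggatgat
For Myl1, 16.0% of the words also occur in the pseudogene Mylf-ps, for Acta1 2.02% occur elsewhere, and for the other 5 genes none do. Transcripts on the opposite strand overlap Myh1 (Myhas), Myh2 (9430073C21Rik), Mybpc2 (Gm44646), Tnnt3 (Prr33), Tnnc2 (Ube2c) and Acta1 (Gm20388). The library protocol does not say whether strand was kept, so reads of the overlapping parts cannot be told apart. The counts assigned to Myhas, 9430073C21Rik, Prr33 and Ube2c reached at most 1.56% of the count of the overlapped gene in any mouse.

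Total counts were 23796902 to 29136403 per mouse. The 10 genes together took 12.2%, 9.69% and 13.3% of all counts in the control mice and 10.0%, 8.95% and 12.03% in FLExD/+ mice. They took 6.92%, 7.09% and 7.77% in the moderate model and 1.89%, 3.05% and 2.92% in the severe model, so neither model overlapped the controls. The other large class, transcripts of the mitochondrial genome, took 25.3% to 34.5% of counts in controls and 19.2% to 20.5% in the severe model. Beside these shares, the TMM factors that scale libraries against each other were 0.706–0.724 in controls and 1.69–1.87 in the severe model, and every fold change depends on this scaling. Over all genes tested, the middle log2 fold change against controls was 0.04 for moderate and 0.08 for severe mice after TMM, and 0.65 and 1.39 when only library size was used. The labels were checked with Esr1, whose sequence is part of MerCreMer, and with Wfdc3, a gene that DUX4-fl switches on in mouse muscle. Esr1 was at 422 to 819 CPM (counts scaled to library totals of 1000000 after TMM) in controls, 27.5 to 37.9 in FLExD/+, 95.9 to 124 in moderate and 35.2 to 37.4 in severe mice, which overlapped FLExD/+. In TPM (transcripts scaled to the same total after division by length), where the severe mice had 38.6 to 45.1 and FLExD/+ mice 4.87 to 8.78, the severe mice stood above the mice without MCM. Wfdc3 was at 0.0496 to 0.386 CPM in all control and FLExD/+ mice and at 62.6 to 116 CPM in all moderate and severe mice. The former values reach below the level of 3 counts, which is 0.142 to 0.155 CPM in those mice. Ckm and Des, markers of muscle fibers, were present in the controls at 22076 ± 2585 and 1930.0 ± 103 CPM (SD, n = 3).

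**Figure D1:**
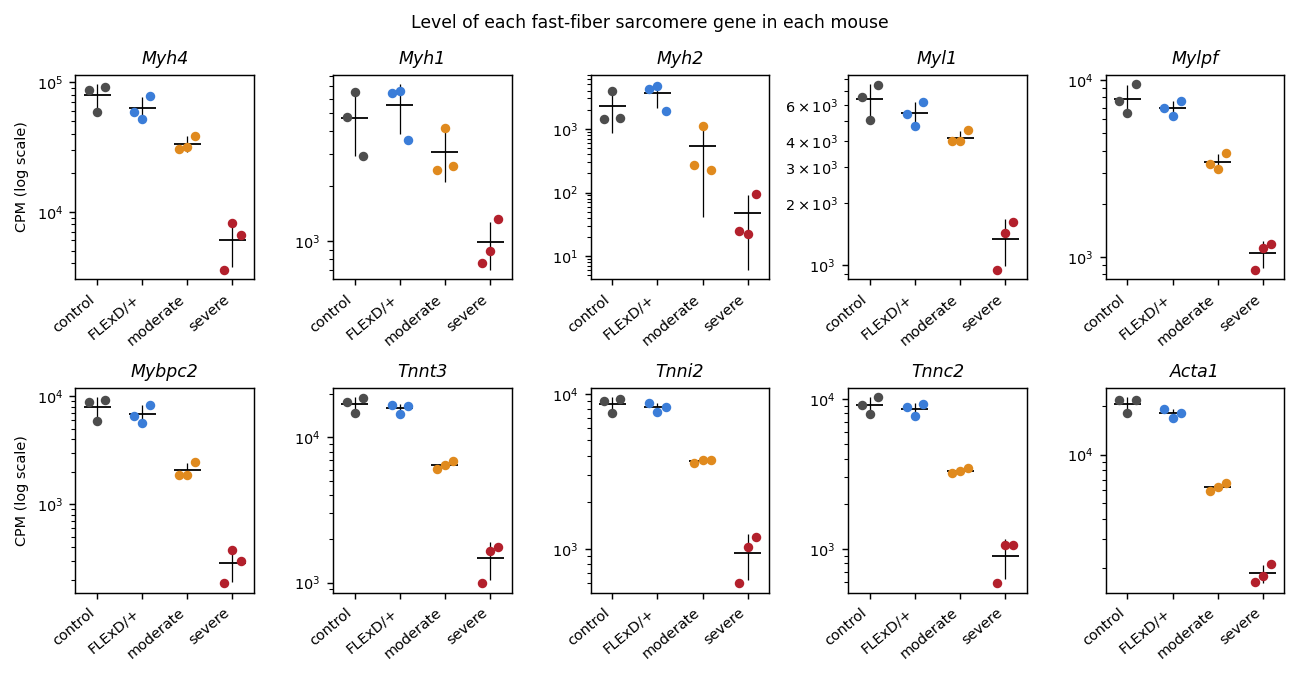
Level of each of the 10 genes in CPM (log axis) in each mouse, by group; points are mice, horizontal lines are group means and vertical lines 1 SD. Control and FLExD/+ mice overlap in every panel, and the 3 severe mice lie below all moderate and control mice in every panel.

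Of the 10 genes, 9 had lower values in all 3 moderate mice than in any control mouse, and all 10 in the severe model. A gene was called when edgeR's quasi-likelihood test gave an adjusted p below 0.05 (Benjamini-Hochberg over 16679 genes) and its log2 fold change was 0.5 or larger in size. By this rule 8 of the 10 were called lower in the moderate model, where 17.0% of all genes tested were called lower and 28.5% lay below the controls without overlap. In the severe model 10 of 10 were called lower (27.9% of all genes, and 34.9% without overlap), and between the severe and the moderate model again 10 of 10 (18.8% of all genes, and 30.8% without overlap). The 10 log2 fold changes had a median of -1.32 for moderate and -3.41 for severe mice against controls, and of -1.93 for severe against moderate mice. The mean level left in the severe model ranged from 20.9% of the control mean for Myh1 down to 2.12% for Myh2, with a median of 9.44% over the 10 genes. In the moderate model this range was 65.2% (Myl1) to 23.5% (Myh2). These libraries hold RNA of whole muscle, in which fewer fibers and less RNA per fiber cannot be told apart.

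With library size alone in place of TMM, the medians of the 10 genes were -0.71 and -2.11, and 7 and 10 of them were called lower, against 4.51% and 6.42% of all genes tested. The split of calls over all genes moved with this choice. For moderate mice it went from 17.0% lower and 24.4% higher to 4.51% and 52.5%, for severe mice from 27.9% and 32.9% to 6.42% and 75.4%, and for severe against moderate mice from 18.8% and 17.6% to 4.93% and 57.8%. Limma on log2(TPM + 1) called 6 and 10 of the 10 genes lower (4.42% and 5.92% of all genes), and DESeq2 called 9 lower in moderate mice (13.7% of the genes it tested). The distance between the median of the 10 genes and the median of all genes differed little between TMM and library size alone, at -1.36 under both in the moderate model and at -3.49 and -3.50 in the severe model. With limma on TPM it was smaller, at -1.12 and -3.02. The plot of fold changes under 3 scalings shows each gene nearer to 0 under the other 2 than after TMM.

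**Figure D2:**
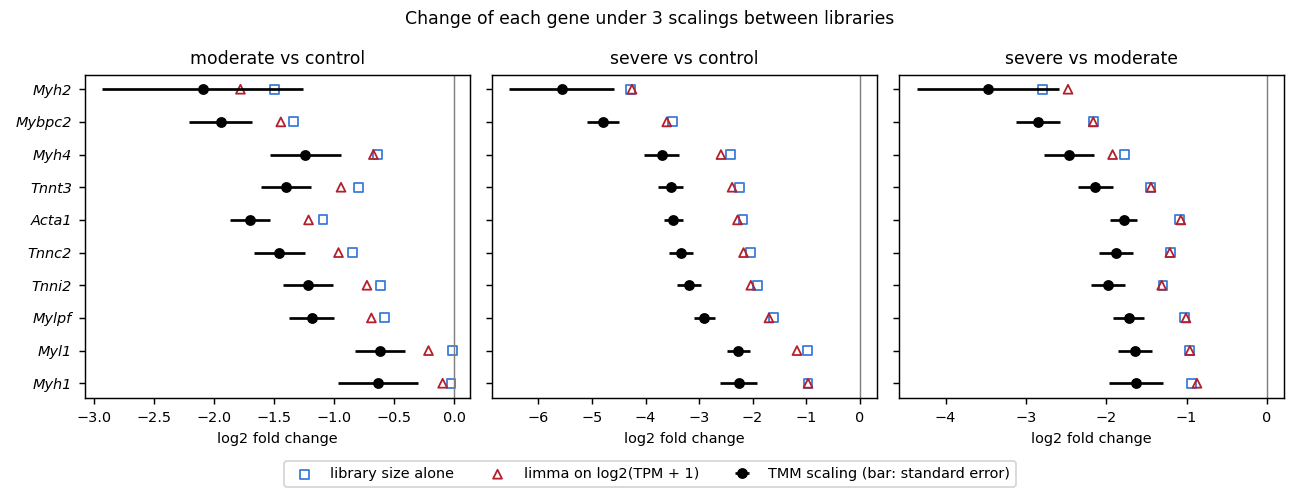
Log2 fold change of each gene in 3 comparisons, as estimated after TMM scaling (filled circles with 1 standard error), with library size alone (squares) and by limma on log2(TPM + 1) (triangles). Myh2 and Mybpc2 have the lowest and Myl1 and Myh1 the highest values in each panel, and in the moderate model Myl1 and Myh1 reach -0.01 and -0.03 with library size alone.

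Between the single-transgenic groups, none of the 10 genes was called in either direction, where 0.00600% of all genes tested were called. The values of the FLExD/+ and control mice overlapped for all 10 (4.59% of all genes lay lower without overlap). The log2 fold changes ran from -0.33 (standard error 0.29) for Myh4 to 0.66 (standard error 0.81) for Myh2, and none had an unadjusted edgeR p under 0.05 (3.83% of all genes). DESeq2, which called 0.00357% of its genes lower and 0.00713% higher, and limma on log2(TPM + 1) also called none of the 10.

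Myh4, the heavy chain of type IIb fibers, was the most abundant by counts. Its level was 86693, 58766 and 92481 CPM in control mice, 58682, 51731 and 78688 in FLExD/+ mice, 30420, 31621 and 38812 in moderate mice and 3545, 8146 and 6622 in severe mice. Each model separated from the groups above it with no overlap. The moderate log2 fold change was -1.24 (standard error 0.30, edgeR adjusted p = 0.002885) and the severe one -3.70 (standard error 0.33, edgeR adjusted p = 1.463e-07), which left 42.4% and 7.70% of the control mean. On the TPM scale with limma the moderate change was -0.67 and was not called (adjusted p = 0.06968).

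Myh1, the heavy chain of type IIx fibers, varied more between mice and fell less. Controls had 4754, 6530 and 2933 CPM, FLExD/+ mice 6419, 6613 and 3582, moderate mice 2446, 4163 and 2569, and severe mice 763, 885 and 1318. The moderate mice overlapped the controls and the severe mice did not. The moderate change of -0.63 (standard error 0.33) was not called by edgeR (adjusted p = 0.1271). The severe change was -2.26 (standard error 0.35, edgeR adjusted p = 5.93e-05).

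Myh2, the heavy chain of type IIa fibers, was the lowest of the 10 genes and changed the most. Controls had 1425, 3909 and 1472 CPM, FLExD/+ mice 4214, 4683 and 1890, moderate mice 273, 1099 and 225, and severe mice 25.0, 22.6 and 96.5. All moderate mice were below all controls, but the spread was wide, and the change of -2.09 (standard error 0.84) was not called by edgeR (adjusted p = 0.06126). In the severe model it was -5.56 (standard error 0.98, edgeR adjusted p = 0.0006533), with expected counts of 959 to 3993 per mouse. The control mouse with the highest Myh2 and Myh1, mouse 1246, was also the control with the lowest value for the other 8 genes. It had the highest level of the slow heavy chain Myh7 among controls (1034 CPM against 501 and 170), and FLExD/+ mice 1358 and 1367 (1083 and 938 CPM against 256) and moderate mouse 1308 (275 CPM against 86.6 and 73.4) paired high Myh7 with high Myh2 in the same way. The moderate changes of Myh1 and Myh2 depended on which of these mice were included. Without control mouse 1246 they were -0.36 for Myh1 (edgeR adjusted p = 0.4054) and -1.47 for Myh2 (edgeR adjusted p = 0.1967), neither called. Without moderate mouse 1308 the moderate change was -3.19 for Myh2 (adjusted p = 0.01296) and -0.92 for Myh1 (adjusted p = 0.04832), both called by edgeR. Since mouse 1308 had the highest values of its group for both genes, a larger change without it follows from its removal. Without mice 1246 and 1308 together, a choice made after seeing the data, the Myh2 change was -2.54 (edgeR adjusted p = 0.02516).

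Myl1 and Mylpf encode the fast essential and regulatory light chains, which wrap the neck of each myosin head. Myl1 had 6592, 5085 and 7499 CPM in controls, 5424, 4740 and 6217 in FLExD/+ mice, 3991, 3990 and 4518 in moderate mice and 944, 1436 and 1612 in severe mice. It was the gene with the smallest moderate change, -0.62 (standard error 0.21, edgeR adjusted p = 0.02067), and this call was lost with library size alone, where the change was -0.01 (adjusted p = 0.9562). In the severe model Myl1 changed by -2.26 (standard error 0.21, edgeR adjusted p = 3.17e-07). Mylpf had 7603, 6483 and 9534 CPM in controls, 6937, 6249.7 and 7609 in FLExD/+ mice, 3354, 3154 and 3877 in moderate mice and 843, 1121 and 1184 in severe mice. It thus lay below the controls in all 6 model mice, with changes of -1.19 and -2.91 (standard errors 0.19 and 0.20, edgeR adjusted p = 9.379e-05 and 9.778e-09).

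Mybpc2 encodes the fast form of myosin-binding protein C, which sits on the thick filament and tunes how myosin heads engage actin. Its level was 8840, 5849 and 9202 CPM in controls, 6560, 5709 and 8343 in FLExD/+ mice, 1876, 1851 and 2487 in moderate mice and 186, 375 and 302 in severe mice. After Myh2 it had the lowest values, with log2 fold changes of -1.94 (moderate, standard error 0.26, edgeR adjusted p = 2.613e-05) and -4.79 (severe, standard error 0.30, edgeR adjusted p = 4.356e-09), the latter a mean 27.7-fold lower than in controls.

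The 3 fast troponin genes moved closely together. Tnnt3, which encodes the troponin T that anchors the complex to tropomyosin, had 17562, 14849 and 18621 CPM in controls, 16809.9, 14482 and 16351 in FLExD/+ mice, 6055, 6437 and 6871 in moderate mice and 987, 1650.1 and 1769.8 in severe mice. Tnni2, the inhibitory subunit, had 8919.7, 7565 and 9299.7 CPM in controls, 8708, 7598 and 8273 in FLExD/+ mice, 3607, 3729.6 and 3764 in moderate mice and 601, 1031 and 1190.4 in severe mice. Tnnc2, the calcium sensor, had 9178, 7911 and 10244 CPM in controls, 8808, 7711 and 9244 in FLExD/+ mice, 3217, 3295 and 3466 in moderate mice and 589.5, 1056 and 1062 in severe mice. For each of them the 3 moderate mice formed a narrow cluster below the controls and the severe mice a wider one below that. The moderate changes were -1.40, -1.22 and -1.45 for Tnnt3, Tnni2 and Tnnc2 (standard errors 0.21 each, edgeR adjusted p = 6.463e-05, 0.0002336 and 4.682e-05). The severe changes were -3.53, -3.19 and -3.34 (standard errors 0.23 each, edgeR adjusted p = 5.975e-09, 1.61e-08 and 9.765e-09). Tnni2 (142441808 to 142444410) and Tnnt3 (142498836 to 142516009) are neighbours on chromosome 7, 54425 bases apart, while Tnnc2 is on chromosome 2.

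Acta1 encodes the actin of the skeletal thin filament, used by fast and slow fibers alike. It had 21647, 18119 and 21843 CPM in controls, 19109, 16859 and 18157 in FLExD/+ mice, 5986, 6341 and 6689 in moderate mice and 1636, 1782 and 2109 in severe mice. Moderate and severe mice overlapped neither each other nor the other groups, and in the control, FLExD/+ and severe groups Acta1 had the smallest spread between mice of the 10 genes. The changes were -1.70 (standard error 0.17, edgeR adjusted p = 1.222e-06) and -3.48 (standard error 0.18, edgeR adjusted p = 7.571e-10), a mean 3.24-fold and 11.1-fold lower than in controls.

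From the moderate to the severe model all 10 genes fell further. The log2 fold changes ran from -1.63 for Myh1 (standard error 0.34, edgeR adjusted p = 0.001489) to -3.47 for Myh2 (standard error 0.89, edgeR adjusted p = 0.009855), with Mybpc2 at -2.85 and Myh4 at -2.46, and the other 6 between -1.65 and -2.14. The Myh2 call was lost without severe mouse 1047 (adjusted p = 0.05194). Severe mouse 1047 had the lowest value of its group for 9 of the 10 genes, all but Myh2.

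Levels were compared between genes in TPM, which corrects for transcript length. In control muscle the order of mean TPM was Tnnt3 (17082), Myh4 (13183), Acta1 (13141), Tnnc2 (12153), Tnni2 (10931), Mylpf (9608), Myl1 (7338), Mybpc2 (1964), Myh1 (718) and Myh2 (377). Neighbours overlapped in this order except at 2 steps, from Myl1 to Mybpc2 and from Mybpc2 to Myh1. In the severe model the order was Tnnt3 (3335), Myl1 (3264), Mylpf (2940.5), Tnnc2 (2762), Tnni2 (2738), Acta1 (2691), Myh4 (2263), Myh1 (355), Mybpc2 (164) and Myh2 (19.2). Mean TPM placed Myh4 second in controls and seventh in the severe model, where it overlapped Acta1 above it. Mybpc2 and Myh1 changed places. Mybpc2 was above Myh1 in every control mouse and below it in every severe mouse (110 to 226 against 293 to 433 TPM).

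Among 6 heavy chain genes (Myh4, Myh1, Myh2, slow Myh7, embryonic Myh3 and perinatal Myh8), the composition of the message was read from their TPM within each library, which no scaling between libraries affects. Their summed TPM was 11330.4 to 16849 in controls, 10038 to 15590.2 in FLExD/+, 7997 to 9574 in moderate and 2259.8 to 3913 in severe mice. Myh4 made up 91.0% ± 6.03 of it in controls, 86.9% ± 6.02 in FLExD/+, 89.9% ± 3.61 in moderate and 69.9% ± 10.3 in severe mice (SD, n = 3 each). The severe mice had 59.6%, 80.2% and 70.0%, all below the lowest control at 84.2%. The share of Myh1 was 12.96%, 8.66% and 13.2% in severe mice against 4.75%, 8.72% and 2.73% in controls, which overlap, and the share of Myh2 was at most 1.07% in severe mice and at least 1.47% in controls. Myh3 and Myh8 together made up 0.0257% ± 0.00817 in controls, 1.03% ± 0.402 in moderate and 17.8% ± 8.19 in severe mice (SD, n = 3 each), with no overlap between these groups, so the 3 adult fast chains made up 73.1% to 89.1% of the heavy chain message in severe mice and 98.7% to 99.8% in controls. Myh8 also shares 50-base words with the 3 adult fast chains, so reads of such words were divided among them by RSEM. The stacked bars of heavy chain message show this mouse by mouse.

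**Figure D3:**
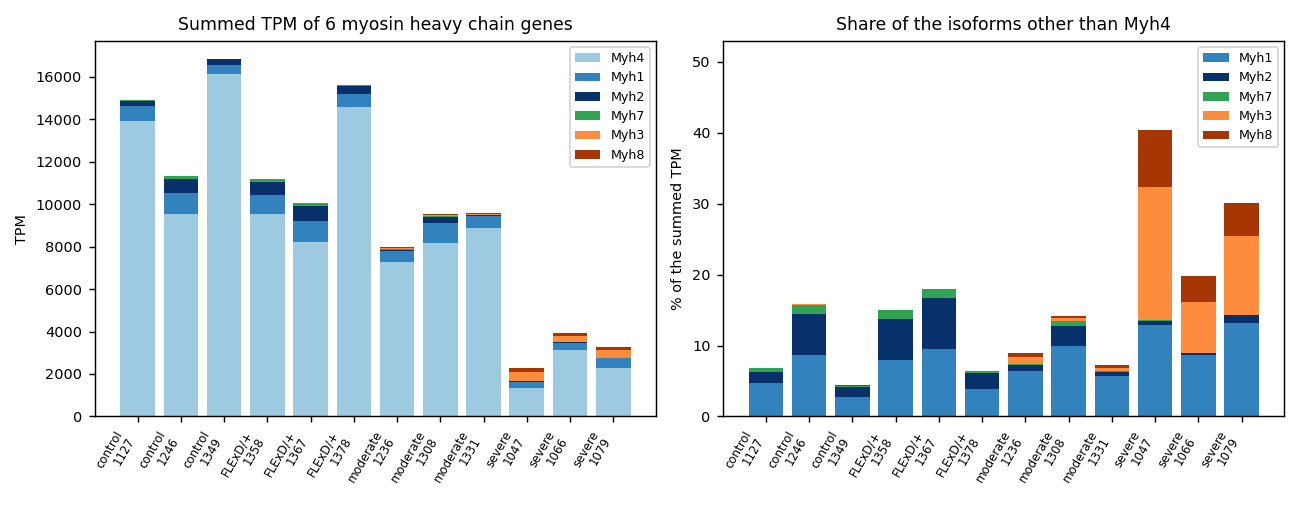
Left, summed TPM of 6 myosin heavy chain genes in each mouse, stacked by gene; right, the share of the summed TPM taken by the isoforms other than Myh4, in percent. Myh1 is the largest of these shares in each control, FLExD/+ and moderate mouse, and Myh3 and Myh8 together take 10.8% to 26.8% in the severe mice.

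Ratios of 2 genes within a library likewise do not depend on scaling, and 8 pairs were compared in 4 contrasts, 32 comparisons in all. With 3 mice against 3 the smallest two-sided exact permutation p is 0.10, so no comparison could reach 0.05, and the smallest p adjusted over the 32 was 0.1882. Myh1 relative to Myh4 was 5.09%, 10.4% and 2.85% in controls and 21.7%, 10.8% and 18.8% in severe mice, a mean ratio 3.09-fold higher without overlap (exact permutation p = 0.10), though the lowest severe mouse was only just above control mouse 1246, and in CPM the groups overlapped (exact permutation p = 0.20). Myh2 relative to Myh4 moved the other way, to 0.297 of the control ratio in the severe model (exact permutation p = 0.10), with the highest severe mouse (1.53%) barely below the lowest control (1.54%). Mybpc2 relative to Myh4 was nearly constant in the 2 single-transgenic groups, at 15.3%, 14.9% and 14.5% in controls and 15.4%, 16.1% and 15.6% in FLExD/+ mice (a difference of 0.08 on the log2 scale, without overlap), and lower in moderate (8.61%, 8.25% and 9.39%) and severe mice (8.19%, 7.19% and 6.76%). Both models lay outside the range of the controls, by -0.77 and -1.02 on the log2 scale (exact permutation p = 0.10 each).

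The light chains changed relative to each other and to the heavy chain. Myl1 was at 82.2%, 73.4% and 74.0% of the Mylpf level in controls, at 104%, 113% and 103% in moderate mice and at 98.3%, 113% and 119% in severe mice, without overlap between either model and the controls. Myl1 relative to Myh4 was 0.46 (moderate) and 1.42 (severe) higher on the log2 scale than in controls, again without overlap. Among the troponins, Tnnt3 relative to Tnnc2 differed from controls by 0.02 in the moderate model, with overlap, and by -0.21 in the severe model without overlap. Tnni2 relative to Tnnc2 differed by 0.24 and 0.14, both without overlap. In the severe model the separation was narrow, with a lowest severe log2 ratio of -0.101 and a highest control of -0.109. Acta1 relative to Myh4 was lower in the moderate model (-0.54, no overlap) and overlapped the controls in the severe model (0.31). The plot of within-library ratios gives 6 of these pairs.

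**Figure D4:**
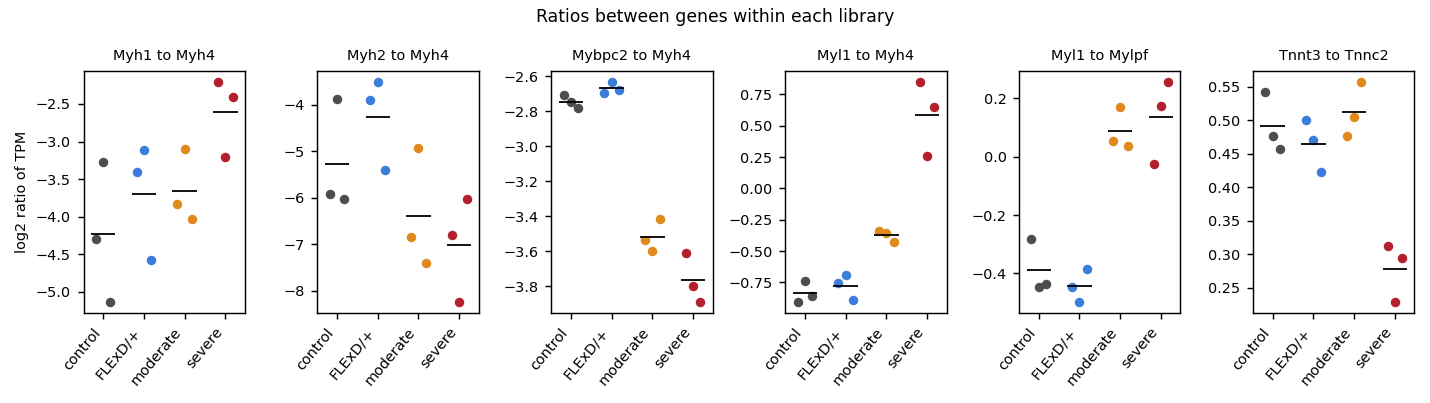
Log2 ratio of TPM for 6 pairs of genes within each library; points are mice and lines group means. Mybpc2 to Myh4 drops between the FLExD/+ and moderate groups with no overlap, Myl1 to Myh4 and Myl1 to Mylpf rise, and Tnnt3 to Tnnc2 is lower in the severe mice alone.

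Other genes of the fast program were lower as well. Of 8 such genes, 8 were called lower in each of the moderate, severe and severe-against-moderate comparisons, also with library size alone and with limma on TPM, with median log2 fold changes of -1.60, -3.96 and -2.31. They included Actn3, the fast α-actinin of the Z-disc (-2.26 and -4.59 in the moderate and severe models), Mylk2, the kinase that phosphorylates the regulatory light chain (-2.38 and -4.89), Atp2a1, the fast calcium pump (-1.59 and -3.65), and Pvalb, the calcium buffer parvalbumin (-1.46 and -4.91). In size, the severe change of Pvalb lay between those of Mybpc2 and Myh2. For the moderate, severe and severe-against-moderate comparisons, 17.0%, 27.9% and 18.8% of all genes were called lower. With library size alone these shares were 4.51%, 6.42% and 4.93%.

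Sarcomere genes that fast and slow fibers share moved in the same direction but less evenly. Of 12, edgeR called 9 lower for moderate and 10 lower for severe mice, and none higher. The shares of all genes called lower were 17.0% and 27.9%. With library size alone 4 of the 12 were lower and 1 higher (Actn2) for moderate mice, and 8 lower for severe mice. That scaling called 4.51% of all genes lower and 52.5% higher for moderate mice, and 6.42% lower for severe mice. Tcap, the titin cap, changed by -1.78 and -5.07, Ckm, the muscle creatine kinase, by -1.43 and -3.89, and Ttn, titin itself, by -1.06 and -2.43. Actn2, the α-actinin of all fibers, was at 0.54 and -0.61 after TMM, not called in either model, and at 1.14 and 0.69 with library size alone.

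Slow-fiber genes were mixed, beside shares over all genes of 17.0% lower and 24.4% higher for moderate and 27.9% and 32.9% for severe mice. Of 11, 3 were called lower in the moderate model (Myl2, Myl3 and Mybpc1), and in the severe model 4 were called lower, those and Myh7 (-6.86, standard error 1.07, edgeR adjusted p = 0.000286), and 1 higher, Casq2 (1.43, edgeR adjusted p = 0.02668). With library size alone Casq2 and Tnni1 were both called higher in severe mice. This scaling called 52.5% of all genes higher for moderate and 75.4% for severe mice. The 11 genes summed to 1993 to 4876 CPM in control mice. Of 5 developmental isoforms 4 were called higher in both models under each scaling, Myh3 (4.68 and 6.80), Myh8 (4.70 and 6.02), Tnnt2 (3.93 and 6.04) and Myl4 (2.53 and 3.81). Cardiac actin, Actc1, was at -0.28 and -0.99 after TMM, the latter called lower, and at 0.32 and 0.31 with library size alone, not called.

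Of 3 genes that fold and assemble myosin, edgeR called 2 lower and 1 higher in each model after TMM. Over all genes tested, 17.0% were called lower and 24.4% higher for moderate mice, and 27.9% and 32.9% for severe mice. Unc45b, the myosin chaperone, and Smyd1, a methyltransferase that acts on myosin, were called lower in both models (-0.62 and -1.56, and -1.03 and -2.53), while Hsp90aa1, the heat shock protein that works with them, was called higher (1.02 and 1.98). With library size alone, Hsp90aa1 remained higher, Smyd1 was called lower in the severe model only, and Unc45b was called in neither (-0.01 and -0.26). Under that scaling 52.5% of all genes were called higher and 4.51% lower for moderate mice, and 75.4% and 6.42% for severe mice.

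Of 14 transcription regulators of fiber type, 9 were called in moderate mice (3 up, 6 down) and 12 in severe mice (3 up, 9 down). Over all genes tested, 24.4% were called higher and 17.0% lower for moderate mice, and 32.9% and 27.9% for severe mice. The split among the 14 turned with library size alone, to 5 higher and 4 lower and to 7 higher and 3 lower. That scaling also moved the shares over all genes, to 52.5% higher and 4.51% lower and to 75.4% higher and 6.42% lower. Sox6, which represses slow-fiber genes (-1.32 and -2.91), Tbx15, which favours glycolytic fast fibers (-1.29 and -2.51), and Mafa, one of the large Maf factors of type IIb fibers (-1.57 and -2.77), were called lower in both models under both scalings. Prox1, a factor of slow fibers (0.87 and 1.47), was called higher in both models under both.

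**Figure D5:**
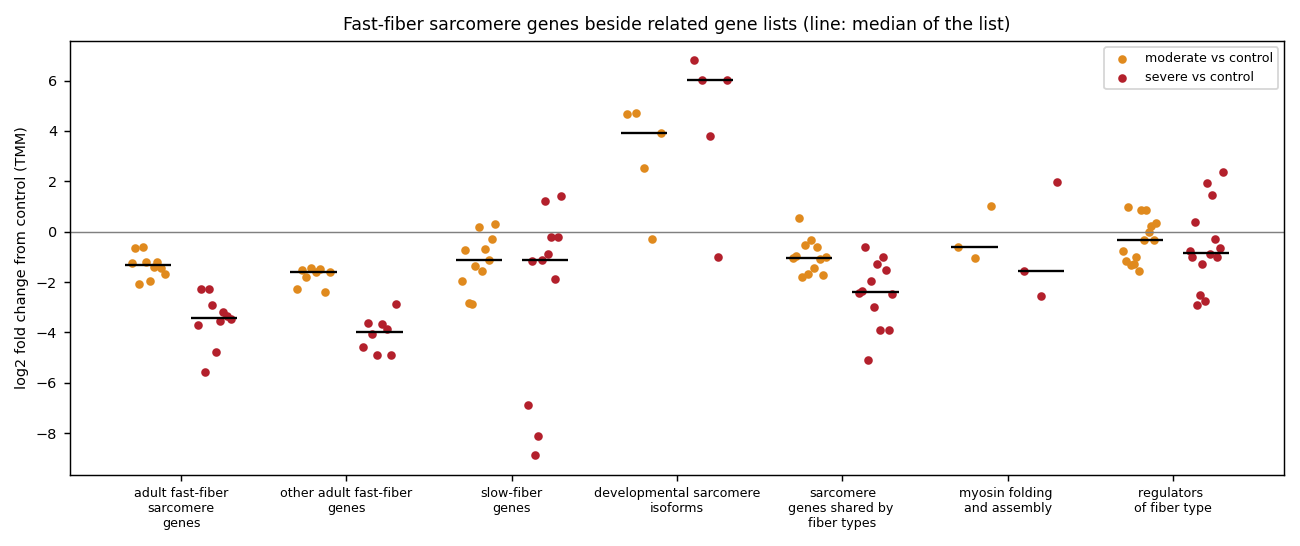
Log2 fold change from control after TMM of the 10 genes and of 6 related gene lists in the moderate and severe models; points are genes and lines list medians. The 10 genes and the other fast-fiber genes lie wholly below 0 in both models, 4 of 5 developmental isoforms lie above, and the slow-fiber genes spread to both sides.

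Markers of other cell types moved at the same time. After TMM, 24.4% of all genes tested were called higher and 17.0% lower for moderate mice, and 32.9% and 27.9% for severe mice. All 5 leukocyte markers (Ptprc, Cd68, Itgam, Adgre1 and Csf1r) were called higher in both models, and their summed level was 38.1 to 48.9 CPM in controls, 193 to 248.7 in moderate and 432 to 501 in severe mice. Of 4 fibroblast markers 2 were called higher in each model and 1 lower in the severe model, with sums of 604 to 1513, 2239.9 to 2369.7 and 3773 to 4899 CPM. Of 3 endothelial markers 1 and 3 were called lower, and of 2 adipocyte markers 0 and 2. These lower calls depend on the scaling. With library size alone, the severe changes of Pecam1 and Dcn turned from -0.60 and -0.79 to 0.70 and 0.51, both called higher, Cdh5 (0.15) and both adipocyte markers were not called, and Kdr stayed called lower (-1.08). The leukocyte markers were called higher under both, while library size alone called 52.5% of all genes higher for moderate and 75.4% for severe mice. None of these markers was at 0. The part of these cells in the lower share of the 10 genes was not tested.

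The tested genes most like the 10 were found by the root mean square distance, over 12 mice, of log2 CPM less the control mean from the median of the 10, among 1003 genes with at least 100 CPM in controls. They were Pgm2 (distance 0.0849), a phosphoglucomutase, Aldoa (0.10), the glycolytic aldolase of muscle, Rtn2 (0.104), Nctc1 (0.108) and Fsd2 (0.123). Mean Aldoa was 14646 CPM in control, 5381 in moderate and 1343 in severe mice. The 10 genes themselves were at 0.0793 (Tnnc2) to 1.57 (Myh2), and Myh1 (0.844), Mybpc2 (0.782) and Myl1 (0.676) also lay far from their common median.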

How the data were processed

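Values were expected counts and TPM for 12 gastrocnemius libraries (single-end, 50 bases, poly(A)-selected). The authors made the deposited expected counts with RSEM 1.2.4, modified to call Bowtie, on mm10 with transcripts merged from UCSC, Ensembl and MISO, followed by TopHat 2.0.8b for reads left over. The deposited TPM values come from the same estimates and hold no factor between libraries. Groups came from the sample labels. Expected counts were rounded and tested with edgeR 4.0.16 (filterByExpr, TMM, robust quasi-likelihood test, 1 fit of 4 groups, R 4.3.3), with Benjamini-Hochberg adjustment over 16679 genes; standard errors were derived from F. TPM were tested with limma 3.58.1 as log2(TPM + 1), and DESeq2 1.42.0 was an alternative. Each mouse had 23796902 to 29136403 counts, so a floor of 3 counts equals 0.0676 to 0.155 CPM (counting error only). Labels do not say whether mice shared litters or batches. Positions came from GENCODE M21 (GRCm38, 35982 of 37748 identifiers matched), promoter windows from RefSeq. Adgre1 is listed in the file by an older name and was matched by identifier, and of 2 rows named Wfdc3 the identifier of the protein-coding gene was used. Plots used matplotlib 3.10.9 (Python 3.11.15).

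Named are the 10 genes, genes of the lists shown (some regulators of fiber type are not reported here by name), the 5 most similar genes, Esr1 and Wfdc3. The genes and lists were chosen with earlier results of these data known. The tests were tried on simulated counts in which a small set of genes changed, equally often up and down, in the moderate group alone. That setting holds no large shift between libraries, so it does not bear on the choice of scaling. Alternatives were median-of-ratios factors, library size with and without the 10 genes and mitochondrial transcripts, DESeq2, limma, 2 other filters on low counts, only the groups compared, stricter thresholds and each mouse left out in turn.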

Additional observations from a re-analysis of the deposited data

How the results depend on the processing

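The count of the 10 genes called moved with the settings in the moderate model and little in the other comparisons. In the moderate model 8 were called lower, with 6 (limma on log2(TPM + 1)) to 9 (DESeq2, or at least 10 counts in every mouse) under other settings and 7 to 9 when 1 mouse was left out. The share of all genes called lower there was 17.0% after TMM, 4.51% with library size alone, 4.42% with limma and 13.7% with DESeq2. In the severe model 10 were called under all 17 alternatives, and from moderate to severe 10, or 9 without severe mouse 1047. For these 2 comparisons 27.9% and 18.8% of all genes were called lower after TMM, and 6.42% and 4.93% with library size alone. Between FLExD/+ and control mice none was called under any alternative. Without control mouse 1349 (control replicate 3), 2 uncalled values in that comparison changed sign, Myh1 to -0.032 (up to 0.52 with another mouse left out) and Tnnc2 to 0.0038 (down to -0.18). Calls that changed were all of Myh1, Myh2, Myl1 and Myh4. The moderate Myl1 change lost its call with library size alone (-0.01), with library size less the 10 genes and mitochondrial transcripts (-0.15), with limma on TPM (-0.21) and without control mouse 1349 (edgeR adjusted p = 0.07078), moderate mouse 1236 (0.06636) or moderate mouse 1308 (0.06296). The moderate Myh2 change was -1.47 without control mouse 1246 (edgeR adjusted p = 0.1967) and was called with DESeq2 (adjusted p = 0.03689) and with at least 10 counts in every mouse (edgeR adjusted p = 0.04188), and the moderate Myh1 change without control mouse 1349 (-0.91, edgeR adjusted p = 0.02902). The Myh1 to Myh4 ratio in severe against control mice was 1.63 on the log2 scale, 1.18 to 2.11 with 1 mouse left out, and 1.53 on CPM, where the groups overlapped (exact permutation p = 0.20). The cause of these changes was not tested. No paired analysis was possible because the groups share no replicate numbers in the labels. The 3 mice per group limit the precision, not depth, as the lowest count of the 10 genes in any mouse was 959.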
